A study of Mus musculus with 9 samples.

Results

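Selenbp1 and Selenbp2 encode the selenium-binding proteins of mouse liver, a pair of closely related genes on chromosome 3. They were taken by gene symbol from the liver expression table of mice under intermittent fasting (IF) or a fasting-mimicking diet (FMD), and are 2 of the 5608 genes listed there. Both passed the filter of a mean TPM of at least 1 that left 4665 genes for testing. The pair was chosen by its measured levels in fed and diet mice, so its values against FED are given as a description, without a test. For the pair, only the comparison of FMD with IF was tested. The IF and FMD values were also known at the choice, so this test is no independent support. All mice were wild type (wt) C57BL/6 J animals of the acute experiment, whose sex and age are not given in the sources used here. FED mice had standard diet ad libitum, IF mice had food withheld for 24 h 2 times a week, and FMD mice received the fasting-mimicking diet for 3 days. RNA of whole liver from 3 mice per group was sequenced, with 1 library per mouse, and the replicates were numbered 1, 2 and 3 for FED, likewise for IF, and 1, 2 and 4 for FMD. TPM, the unit of the table, is an abundance scaled to transcript length and to the library total, so levels of different genes within a library can be compared, but it keeps no read number and the depth of the libraries is unknown. In bulk liver, fewer cells of a type and less RNA per cell cannot be told apart.

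SELENBP1 is a methanethiol oxidase. It degrades methanethiol, a volatile product of methionine breakdown, to hydrogen sulfide, hydrogen peroxide and formaldehyde, and it is abundant in liver. The protein binds selenium but contains no selenocysteine and is therefore not a selenoprotein in the strict sense. Selenbp2 is the mouse paralogue that was first described as an acetaminophen-binding protein of the liver.

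The transcripts of the paralogues are nearly identical, which bears on every value below. In the GENCODE M21 annotation of the GRCm38 genome, the main Selenbp1 transcript has 1712 bases and that of Selenbp2 1719, each in 12 exons, of which 11 have the same length. Aligned to each other, 1687 of 1712 bases were identical (98.5%). The 25 differing bases lay in 10 exons, with 18 in the coding part of 1419 bases and 7 in the untranslated parts. The stretch below, from base 474 to base 653 of the Selenbp1 transcript in exons 5 and 6, is shown because it holds 6 of the differing bases, which are in capitals.
Selenbp1: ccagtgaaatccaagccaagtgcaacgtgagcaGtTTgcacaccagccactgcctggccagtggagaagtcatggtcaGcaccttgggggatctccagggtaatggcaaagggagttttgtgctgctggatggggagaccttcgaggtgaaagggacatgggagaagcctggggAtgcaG
Selenbp2: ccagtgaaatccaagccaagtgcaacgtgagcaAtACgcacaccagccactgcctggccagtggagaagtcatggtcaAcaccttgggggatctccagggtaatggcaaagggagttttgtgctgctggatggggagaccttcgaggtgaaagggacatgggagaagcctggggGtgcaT
By contrast, the following coding run of 193 bases, from base 946 to base 1138, has no difference between the genes and is shown because a read inside it fits both.
Selenbp1 and Selenbp2: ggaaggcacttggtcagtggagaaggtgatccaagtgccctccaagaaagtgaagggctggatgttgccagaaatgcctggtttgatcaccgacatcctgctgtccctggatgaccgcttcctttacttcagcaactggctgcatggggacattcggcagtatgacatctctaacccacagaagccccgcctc
Of all windows of 50 bases in the Selenbp1 transcript, 52.3% occurred letter for letter in Selenbp2. This share was 21.3% for windows of 100 bases and 6.97% for windows of 150 bases. How reads shared by both genes were assigned is not given in the sources used here, so the split of the signal between Selenbp1 and Selenbp2 is less certain than their sum. The part of shared reads in the results was not tested.

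**Figure D1:**
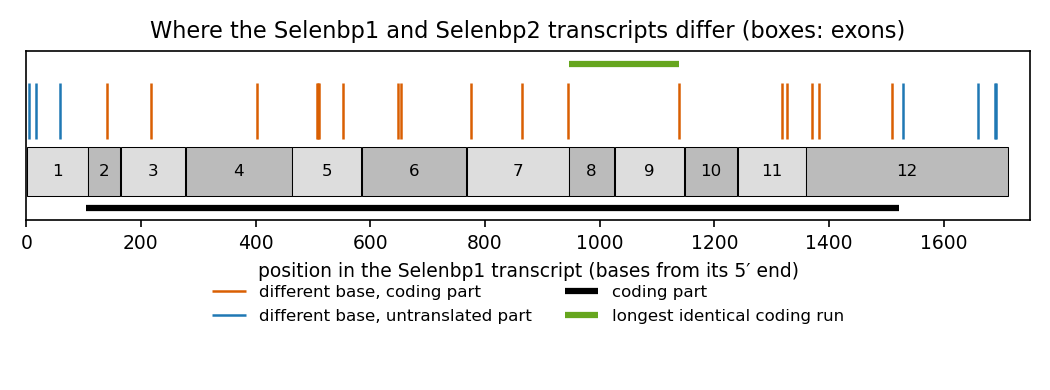
Position of the bases that differ between the Selenbp1 and Selenbp2 transcripts, in bases from the 5′ end of the Selenbp1 transcript. Numbered boxes are exons, orange and blue lines mark the 18 coding and 7 untranslated differences, the black bar marks the coding part, and the green bar marks the identical coding run of 193 bases across exons 7 to 9.

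The promoters were also closely alike. Over the windows of 300 bases around the RefSeq start sites, 272 of 288 aligned bases were identical (94.4%), with 2 gaps that together held 12 bases. The 250 bases before each start are printed from RefSeq (GRCm38.p6, plus strand), because both genes were measured in the same livers and moved apart. Capitals mark bases that differ from the paralogue or have no partner in it.
Selenbp1 promoter, chr3:94932833-94933082: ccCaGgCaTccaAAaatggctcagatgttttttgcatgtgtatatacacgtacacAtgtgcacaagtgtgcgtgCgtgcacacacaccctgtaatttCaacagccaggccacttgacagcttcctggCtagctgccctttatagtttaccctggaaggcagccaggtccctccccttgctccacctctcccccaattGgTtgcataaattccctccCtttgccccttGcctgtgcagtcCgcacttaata
Selenbp2 promoter, chr3:94693323-94693572: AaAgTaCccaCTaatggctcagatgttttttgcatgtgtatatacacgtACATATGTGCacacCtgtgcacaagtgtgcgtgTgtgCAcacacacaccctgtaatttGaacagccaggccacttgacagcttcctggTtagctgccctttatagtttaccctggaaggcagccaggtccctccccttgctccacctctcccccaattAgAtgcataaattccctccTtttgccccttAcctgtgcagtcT
Among 4 motifs searched on both strands, the nuclear receptor half-site AGGTCA, the STAT5 palindrome TTCNNNGAA and the antioxidant response core TGANNNNGC had no match in either window. These letters occurred in 14.0%, 7.04% and 35.3% of the 32536 promoter windows of the same length. CCAAT had 2 matches in Selenbp1, which overlap each other on opposite strands, and 1 in Selenbp2, while 33.8% of all promoters held it. The submitters' notes name mm39 as their genome build, so these coordinates belong to the reference and not to the deposited table.

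Selenbp2 was among the most abundant listed transcripts of fed liver and fell to a small remnant under both diets. Its level in the FED mice was 1890.76, 1834.16 and 1327.98 TPM, at ranks 12 to 24 of all listed genes. In the IF mice it was 45.26, 44.08 and 39.48 TPM, at ranks 930 to 979. In the FMD mice (replicates 1, 2 and 4) it was 20.4, 42.2 and 16.28 TPM, at ranks 1039 to 2029. Every FED library lay far above every diet library, and the lowest FED library exceeded the highest IF library 29.3-fold and the highest FMD library 31.5-fold. The mean was 1684 ± 310 TPM for FED, 42.9 ± 3.05 for IF and 26.3 ± 13.9 for FMD (SD, n = 3 each), a ratio of FED to IF of 39.2 and of FED to FMD of 64.1. On the log2(TPM + 1) scale, Selenbp2 (NCBI gene 20342) differed from FED by -5.25 (SE 0.28) in IF and -6.05 (SE 0.28) in FMD mice. These comparisons share the FED libraries. For orientation, 1.59% of the genes tested were called lower in IF vs FED and the same share, 1.59%, in FMD vs FED, where a call needs an adjusted p under 0.05 with a change of over 1.5-fold on the log2(TPM + 1) scale. A separation of all libraries downwards was found at 6.77% and 2.62% of the genes. Selenbp2 was chosen for this fall, so no call is given for it and nothing is read from its place beside these shares.

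Selenbp1 did not follow its paralogue. Its level was 249.2, 195.71 and 221.53 TPM in FED, 314.47, 333.27 and 271.71 TPM in IF, and 218.63, 388.66 and 252.37 TPM in FMD mice. All IF libraries lay above all FED libraries, by 1.09-fold at the narrowest, whereas the FMD libraries ranged from within the FED values to the highest level of the series in FMD replicate 2. Such a separation upwards is common in these data, as 53.8% of the genes tested had no overlap in this direction in IF vs FED. The mean was 222 ± 26.8 TPM for FED, 306 ± 31.5 for IF and 287 ± 90.0 for FMD (SD, n = 3 each), or 1.38-fold and 1.29-fold of the FED mean. On the log2(TPM + 1) scale, Selenbp1 (NCBI gene 20341) differed from FED by 0.46 (SE 0.20) in IF and 0.33 (SE 0.20) in FMD mice. For orientation, 11.9% and 37.1% of the genes tested were called in either direction in these comparisons. No call is given for Selenbp1, since the pair was chosen by its levels in these groups.

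The small difference of Selenbp1 depends on how libraries are scaled. Over all genes tested, the median log2 fold change was above 0 for either diet, at 0.24 for IF and 0.48 for FMD. When each library was scaled by the median of its ratios to a mean library, the difference of Selenbp1 was 0.18 in IF and turned to -0.22 in FMD mice, and the scaled means were 269 TPM for FED, 305 for IF and 241 for FMD. For Selenbp2 the same step gave -5.53 in IF and -6.59 in FMD mice. Thus the direction for Selenbp1 in FMD mice flipped with the scaling, and that for Selenbp2 did not. The scale factors went with the diet, at 0.815 to 0.843 in FED, 0.962 to 1.03 in IF and 1.09 to 1.43 in FMD libraries. Scaling therefore also takes out a shift between the groups, and which scale is the better one was not tested. On scaled values 7.14% of the genes tested were called in IF vs FED (3.69% higher, 3.45% lower), 11.1% in FMD vs FED (5.49% higher, 5.64% lower) and 2.23% in FMD vs IF (1.11% higher and 1.11% lower).

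**Figure D2:**
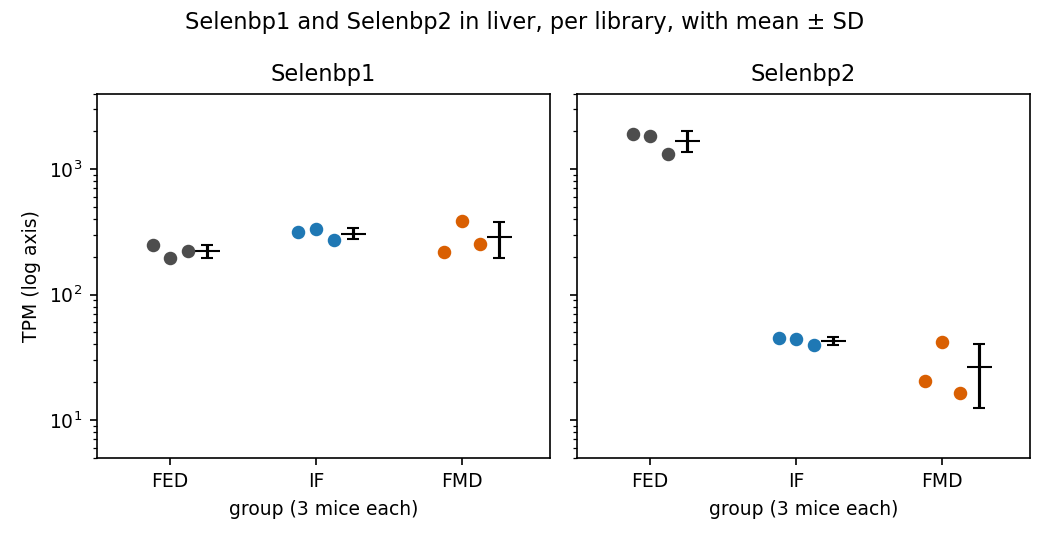
TPM of Selenbp1 (left) and Selenbp2 (right) on a log axis, with 1 point per library and the mean ± SD of 3 mice beside each group. Selenbp1 stays between 195.71 and 388.66 TPM in all libraries, while Selenbp2 lies at 1327.98 TPM or more in FED and at 45.26 TPM or less in IF and FMD mice.

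The order of the paralogues was inverted between fed and diet livers. This ratio is formed within a library and is therefore free of any scaling of the libraries. Selenbp2 exceeded Selenbp1 in the FED mice by a mean of 7.65-fold, with 5.99-fold as the lowest and 9.37-fold as the highest library. In the IF mice Selenbp1 exceeded Selenbp2 by a mean of 7.13-fold (6.88 to 7.56), and in the FMD mice by 11.8-fold (9.21 to 15.5). Expressed as log2 of Selenbp2 over Selenbp1, the values were 2.91 ± 0.32 for FED, -2.80 ± 0.08 for IF and -3.47 ± 0.36 for FMD (SD, n = 3 each). The inversion was present in all 6 diet libraries and absent in all 3 FED libraries.

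Summed over both genes, the level was 1906 ± 314 TPM for FED, 349 ± 34.3 for IF and 313 ± 103 for FMD (SD, n = 3 each). The sum, which does not depend on how shared reads were split between the genes but could on whether they were dropped, was 5.46-fold lower in IF and 6.09-fold lower in FMD than in FED mice. Its lowest FED value, 1549.51 TPM, exceeded the highest diet value, 430.86 TPM in FMD replicate 2. Selenbp2 made up 88.1% ± 2.34 of the sum for FED, 12.3% ± 0.553 for IF and 8.13% ± 1.90 for FMD (SD, n = 3 each). What remained of the summed signal under either diet was therefore mostly assigned to Selenbp1.

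**Figure D3:**
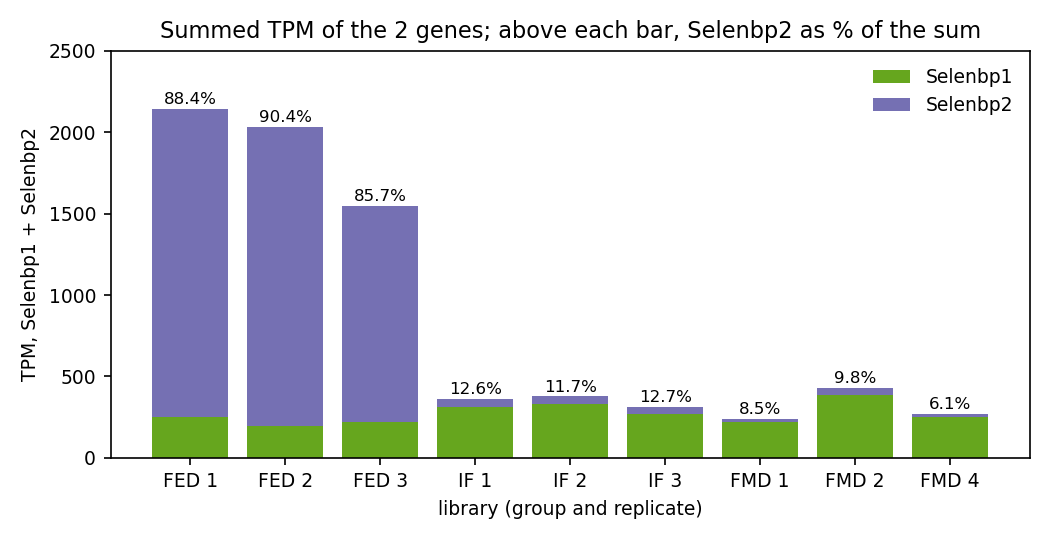
Summed TPM of Selenbp1 (green) and Selenbp2 (purple) in each of the 9 libraries, on a linear axis from 0, with the share of Selenbp2 in percent above each bar. The bars drop from 1549.51 TPM or more in FED to 430.86 TPM or less in the diet mice, and the share of Selenbp2 drops from at least 85.7% to at most 12.7%.

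The diets were then compared with each other, which addresses whether FMD and IF livers differ in the level of these genes. For Selenbp2, the means of 26.3 TPM in FMD and 42.9 TPM in IF mice gave a log2 fold change of -0.80 (SE 0.28), which did not pass (limma, adjusted p = 0.0874). FMD replicate 2, at 42.2 TPM, lay within the IF range, and the other FMD libraries lay below it. The coefficient of variation was 53.0% among FMD and 7.11% among IF mice. Without FMD replicate 2, the log2 fold change was -1.19 and passed the test (limma, adjusted p = 0.0119), so the outcome rests on that library. That omission takes out the library that lay within the IF range, so it is no separate support. With any other single library left out, Selenbp2 did not pass (limma, adjusted p = 0.116 to 0.198). Over all alternatives the adjusted p ranged from 0.0119 to 0.198. Selenbp1 differed by -0.14 (SE 0.20) between FMD and IF (limma, adjusted p = 0.611), with overlapping libraries. In this comparison 5.14% of the genes tested were called, 4.67% higher and 0.472% lower, and neither paralogue was among them.

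FMD replicate 2 had the highest FMD level of both paralogues, and within the FMD group the ratio of Selenbp2 to Selenbp1 varied less than either level, with a coefficient of variation of 25.2% beside 31.4% for Selenbp1 and 53.0% for Selenbp2. The log2(TPM + 1) of Selenbp2 minus that of Selenbp1 was lower in FMD than in IF mice, by a mean difference of -0.66. The libraries did not overlap, with FMD values from -3.87 to -3.17 and IF values from -2.89 to -2.75. Among the unscaled levels of single genes tested, 3.04% had no overlap in this direction and 33.6% in the other. These shares are of levels and not of differences within a library, so they are no like background. An exact permutation test gave p = 0.1 (two-sided), the smallest value possible with 3 against 3 libraries, so the design cannot place this difference under 0.05. Mean levels of Selenbp2 thus ordered as FED above IF above FMD, where the difference between IF and FMD missed the adjusted threshold. Mean levels of Selenbp1 ordered as IF above FMD above FED on the deposited scale and as IF above FED above FMD after scaling, and the FMD libraries overlapped with those of both other groups.

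Signals of other cell types were limited by the table. Among the hepatocyte markers, 1 of 13 was listed, the urea cycle enzyme Ass1, at 2335.07 to 5153.26 TPM over all libraries. Glul, the glutamine synthetase of pericentral hepatocytes and the listed member of 12, ranged from 440.97 to 644.42 TPM except in FMD replicate 1, where it was 161.4 TPM. Of the 12 periportal markers 4 were listed, with sums of 4917.51 to 5902.04 TPM for FED, 4341.87 to 7421.77 for IF and 4225.75 to 7758.57 in FMD mice. Cyp2f2 was called lower and Asl higher in both diets, Cyp2f2 in IF not without FED replicate 1 or IF replicate 2, and Ass1 and Gls2 were not called without scaling. The macrophage marker Cd68, 1 of 8 in its list, lay between 3.14 and 12.16 TPM in all libraries but FMD replicate 1, at 64.02 TPM. Of the 8 stellate cell markers 3 were listed, with sums of 66.61 to 93.78 TPM in FED, 122.41 to 159.57 in IF and 107.26 to 216.8 in FMD mice. Of these, Dcn was called higher in both diets, though not after scaling, and in IF not when any of 4 single libraries was left out. The cholangiocyte marker Krt19, 1 of 6, was at 0.76 to 4.07 TPM, and none of the 7 endothelial and 9 lymphocyte markers was listed. None of the listed markers was at 0. FMD replicate 1, which stood apart in Cd68 and Glul, had 20.4 TPM of Selenbp2, between the other FMD libraries, and without it the log2 fold change of Selenbp2 in FMD vs IF was -0.68. The part of cell composition in the fall of Selenbp2 was not tested.

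The genes around the paralogues were examined next. In the RefSeq annotation (GRCm38), 39 other protein-coding genes lie within 500 kb of either paralogue, 9 of them are in the table and 8 were tested. In IF vs FED none of the 8 was called by limma, where 10.3% of all genes tested were called higher and 1.59% lower, at log2 fold changes from 0.07 to 0.58 with a median of 0.20. In FMD vs FED, 1 of the 8, the proteasome subunit Psmd4, was called higher, at 1.04 (limma, adjusted p = 3.98e-04), where 35.5% of all genes tested were called higher and 1.59% lower, and the others ranged upwards from 0.27. With 8 genes, these counts do not set the neighbours apart from the background. The median of the neighbours was 0.37, beside 0.48 over all genes tested. Of the 3 protein-coding genes between the paralogues, Pogz, a chromatin protein, was listed, at 0.18 in IF and 0.31 in FMD mice. Rfx5, a regulator of MHC class II genes next to Selenbp1, was at 0.46 and 0.36. No tested neighbour had a negative difference from FED in either diet, although after scaling Psmd4 was no longer called and 5 of the 8 were below 0 in IF and 6 of the 8 in FMD mice.

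Genes of sulfur metabolism and of product removal around the methanethiol oxidase reaction were then examined by lists, none of which contains the paralogues. The first list covered the methionine cycle and transsulfuration, with 14 of 30 list members tested. Its members were not sorted by whether they lead to methanethiol. In IF vs FED, 3 were called higher and none lower, with a median log2 fold change of 0.40, and in FMD vs FED 6 were called higher and none lower, with a median of 0.61. The corresponding shares over all genes tested were 10.3% higher in IF and 35.5% higher in FMD mice. Mat2a, the methionine adenosyltransferase of extrahepatic type, was at 25.03, 25.77 and 24.59 TPM in FED, 40.53, 43.49 and 43.23 in IF and 63.68, 58.48 and 56.95 in FMD mice. The groups did not overlap, as was the case upwards for 68% of the genes tested in FMD vs FED and 33.6% in FMD vs IF. Mat2a rose by 0.73 in IF (limma, adjusted p = 9.86e-04) and by 1.21 in FMD mice (adjusted p = 2.49e-05), where it also passed after scaling. The glutathione synthetase Gss rose in FMD by 0.83 and the methionine synthase reductase Mtrr by 0.76. Mtrr was also called in FMD vs IF (0.69, limma, adjusted p = 0.0231), but not after scaling (0.48) and not without IF replicate 1 (0.61), 2 (0.76) or 3 (0.71). The methionine sulfoxide reductase Msra and the sarcosine dehydrogenase Sardh were not called, at 0.25 and -0.21 in FMD vs FED. After scaling, 2 of the 6 calls in FMD mice were left, with Mat2a among them, and none of the 3 in IF mice. Over all genes tested, 5.49% were then called higher in FMD and 3.69% in IF mice. With single libraries left out, the calls of Mat2a in both diets held in every case, while the other 2 calls in IF were each lost without any of 5 libraries and 2 of the 6 in FMD without any of 2 or 3 libraries.

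The handling of methanethiol and sulfide was represented by 9 tested genes of 21. In IF vs FED, 1 was called higher, the thiol methyltransferase Mettl7b at 0.61, beside 10.3% of all genes tested. This value lay at the limit for a call and was 0.58 without FED replicate 2 and without IF replicate 3, where it was not called. In FMD vs FED, 1 was called higher, the aminotransferase Got1 at 1.74, and 1 lower, the persulfide dioxygenase Ethe1 at -0.74 (limma, adjusted p = 0.00435), beside 35.5% and 1.59% of all genes tested. Without FMD replicate 4 Ethe1 was at -0.56 and not called. Ethe1, an enzyme of mitochondrial sulfide oxidation, was at 129.46, 119.74 and 120.8 TPM in FED, 98.35, 123.09 and 87.38 in IF and 83.16, 83.38 and 56.98 in FMD mice. It was lower in all FMD libraries than in any library of the other groups, with a narrow margin to IF (83.38 against 87.38 TPM). No overlap downwards was found at 2.62% of the genes tested in FMD vs FED and 3.04% in FMD vs IF. Got1 ranged from 255.85 to 1235.44 TPM among FMD mice, with the highest value in replicate 2. Mettl7a1 and the methionine salvage enzyme Adi1 were not called, at -0.25 and -0.03 in FMD vs FED. The list medians were 0.14 in IF and -0.03 in FMD mice, below the medians over all genes tested. Of these calls Ethe1 was left after scaling, when 3 further genes of the list were called lower in FMD mice, beside 5.64% of all genes tested.

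Removal of the products hydrogen peroxide and formaldehyde was represented by 14 tested genes of 27, of which 2 were called higher in IF and 4 in FMD mice and none lower. Over all genes tested these shares were 10.3% and 35.5% higher, so the list did not hold markedly more calls than the background. The glutaredoxin Glrx rose by 1.47 in IF and 1.79 in FMD mice, also after scaling. It was at 32.24 to 38.51 TPM in FED, 85.35 to 111.23 in IF and 115.77 to 143.19 in FMD mice, without overlap between groups. Such a separation upwards was found at 53.8% of the genes tested in IF vs FED, 68% in FMD vs FED and 33.6% in FMD vs IF. Srxn1, the sulfiredoxin that reactivates peroxiredoxins, rose by 2.42 in FMD mice and reached 251.27 TPM in FMD replicate 1, with 64.67 TPM in replicate 2 and 47.69 TPM in replicate 4. The S-formylglutathione hydrolase Esd rose in FMD by 0.77, with 348.9 TPM in FMD replicate 1 and 199.56 and 198.53 TPM in the other FMD libraries, and without that replicate it was at 0.50 and not called. The aldehyde dehydrogenase Aldh9a1 was called in both diets, at 0.60 and 0.69, but in FMD not without FMD replicate 2 (0.50), and in IF not when any 1 of the 6 libraries compared was left out (0.53 to 0.66). Sod1 and the glutathione-dependent formaldehyde dehydrogenase Adh5 were not called, at 0.58 and 0.13 in FMD vs FED. The list medians, 0.24 in IF and 0.38 in FMD mice, were close to or below those over all genes tested. Esd and Aldh9a1 were not called after scaling, and 1 other gene, Prdx4, was then called lower in FMD mice, beside 5.64% of all genes tested. Between FMD and IF, 1 gene of this list was called higher, the thioredoxin Txn1 at 0.59, beside 4.67% of all genes tested. None of the methanethiol and sulfide genes was called there. Txn1 was not called after scaling (0.32), nor when any of 7 single libraries was left out (0.41 to 0.62). After scaling, 2 methanethiol and sulfide genes were called lower in FMD vs IF, beside 1.11% of all genes tested.

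Selenoproteins carry selenium as selenocysteine, unlike the paralogues. Of 24 genes 13 were tested, 1 was called higher in IF, 3 in FMD and none lower in either, with a median of 0.14 in both. Over all genes tested 10.3% were called higher in IF and 35.5% in FMD mice and 1.59% lower in either, so these counts were at or below the background. Selenop, the secreted carrier of selenium, was at 2849.82 to 3111.43 TPM in FED, 4093.12 to 4223.38 in IF and 5444.45 to 6185.79 in FMD mice. It rose by 0.98 in FMD (limma, adjusted p = 1.42e-04), and its difference in IF, 0.49, was under the limit for a call. The phospholipid peroxidase Gpx4 rose in both diets, with 460 ± 33.8 TPM for FED, 722 ± 6.56 for IF and 928 ± 173 for FMD (SD, n = 3 each), and the thioredoxin reductase Txnrd1 rose by 0.81 in FMD mice. Txnrd1 was at 128.04 TPM in FMD replicate 1 and at 75.78 and 76.18 TPM in the other FMD libraries, and without that replicate it was at 0.56 and not called. Gpx1, the cytosolic glutathione peroxidase and by level similar to Selenop in fed liver, was not called, at -0.02 and -0.07, and neither was the selenophosphate synthetase Sephs2, at 0.28 and 0.14. None of the selenoprotein calls remained after scaling, when 1 other selenoprotein was called lower in IF and 3 others in FMD mice. Over all genes tested, 3.45% and 5.64% were then called lower. Of the genes for selenocysteine synthesis and insertion, 4 of 13 were tested, and Secisbp2l (0.82) and Xpo1 (0.59) were called higher in FMD mice, beside 35.5% of all genes tested, neither of them after scaling, while Sephs1 and Rpl30 were not called in either diet. Xpo1 lay at the limit and was not called without FED replicate 1 (0.58), FED replicate 2 (0.57) or FMD replicate 1 (0.38).

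**Figure D4:**
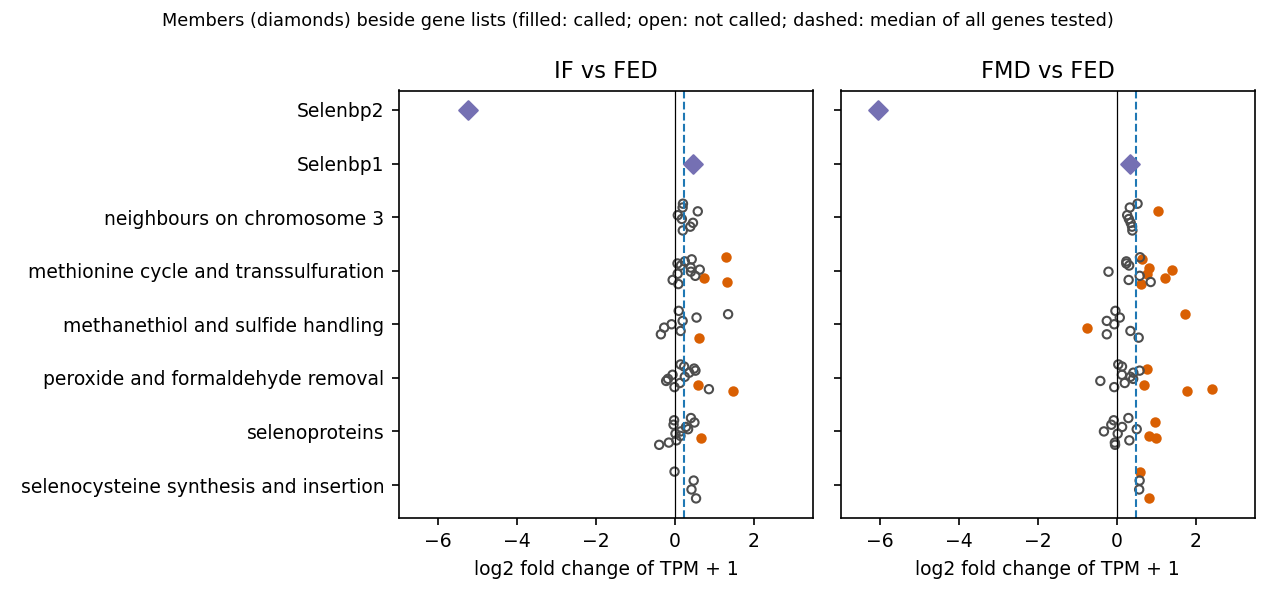
Log2 fold changes of TPM + 1 in IF vs FED (left) and FMD vs FED (right) for Selenbp2 and Selenbp1 (diamonds), their chromosomal neighbours and 5 gene lists, with called genes filled and the median of all genes tested dashed. Selenbp2 stands alone at -5.25 and -6.05, and the lowest list member shown is Ethe1, at -0.74 in FMD mice.

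The remaining lists held genes that differ between the sexes in mouse liver, and each had 1 listed member. Of 30 male-biased genes this was the growth factor receptor Egfr, which was called lower in both diets, at -1.49 in IF and -1.62 in FMD mice. Of 22 female-biased genes it was the proton pump subunit Atp6v0d2, which was called in IF at 0.84 from levels of 0.4 to 0.7 TPM in FED and 1.16 to 2.27 TPM in IF mice, and not after scaling or when any of 5 single libraries was left out. With 1 gene each, these lists say nothing about sex-biased expression as a whole.

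Profiles over the 9 libraries were compared by Pearson's r on log2(TPM + 1), given as a description since the libraries share their groups. Selenbp1 and Selenbp2 had r = -0.51 with each other. Most like Selenbp1 among 4664 other genes were Adh5 (r = 0.98), Sephs2 (0.97), the transcript A730008H23Rik (0.95), the mitochondrial enoyl-CoA hydratase Echs1 (0.94) and the ubiquitin ligase Rnf103 (0.94). Each of them shared the level of FMD replicate 2 above the other FMD libraries. Least like Selenbp1 were the phospholipase Ddhd1 (-0.93), the histone gene H2bc4 (-0.91) and the aminopeptidase Rnpep (-0.91). Above 0.9 were 10 genes and below -0.9 were 3.

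Most like Selenbp2 were the elastase Cela1 (r = 0.98), Egfr (0.98), Cmtm6 (0.97), the leukemia inhibitory factor receptor Lifr (0.96) and the integrin adaptor Fermt2 (0.96). Cela1 went from 23.82 to 30.03 TPM in FED to 5.78 to 7.57 in IF and 3.23 to 4.17 in FMD mice. It was chosen for its likeness to Selenbp2, so the order of its groups is no separate result. Lifr was at 99.06 to 164.59 TPM in FED, 24.78 to 28.78 in IF and 16.88 to 24.39 in FMD mice. The sizes differed widely behind these similar correlations, since Fermt2 differed from FED by -0.27 in IF and -0.24 in FMD mice, Cmtm6 by -0.81 and -0.94, and Selenbp2 by -5.25 and -6.05. Least like Selenbp2 were Uhrf1bp1, the lysosomal arylsulfatase Arsa and the protease inhibitor Cst3, each at r = -0.99. For Selenbp2 17 genes lay above 0.9 and 568 below -0.9, and since a step between FED and both diets dominates its profile, any gene with an opposite step reaches a strongly negative r.

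**Figure D5:**
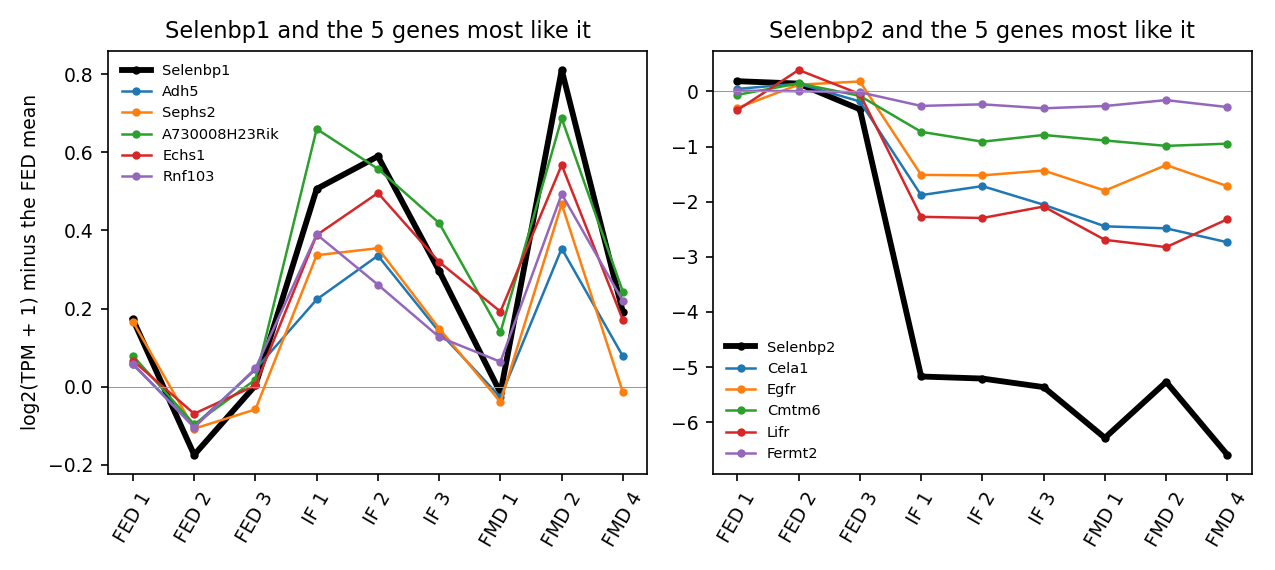
Log2(TPM + 1) minus the FED mean in the 9 libraries for Selenbp1 (left, black) and Selenbp2 (right, black) with the 5 genes most like each. The genes beside Selenbp1 share its peak in FMD replicate 2, and those beside Selenbp2 share the step between FED and the diets at smaller sizes.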

How the data were processed

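Livers of 9 mice (3 FED, 3 IF, 3 FMD) were analysed, grouped by the labels. The deposited values are TPM, which the authors normalized over all transcripts quantified from strand-specific oligo-dT mRNA libraries sequenced on DNBSEQ. The aligner, the annotation and the handling of reads shared by paralogues are not given in the sources used here. The submitters' processing notes name DESeq2 and mm39. The table lists 5608 genes. They hold 26.3% to 29.3% of the full TPM total in FED, 32.9% to 34.9% in IF and 34.9% to 43.0% in FMD libraries. This share and the scale factors thus went with the diet. TPM keeps no read number, so the depth is unknown. Whether more than the mice varied is not stated, so p-values measure only the spread between these libraries.

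Values were converted to log2(TPM + 1), filtered at a mean TPM of 1 and fitted with limma 3.58.1 in R 4.3.3 (trend, Benjamini-Hochberg adjustment, 9 libraries in 1 fit). A call required an adjusted p under 0.05 together with a change of over 1.5-fold (log2 scale), as in the study's methods. The fit was tested on simulated data. Transcripts and promoters were aligned with biopython 1.88, and the log2(TPM + 1) difference of the paralogues was tested by exact permutation. Tables were made with python 3.11.15, pandas 2.3.3, numpy 2.4.6 and scipy 1.17.1, and figures with matplotlib 3.10.9.

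The members, lists and tests were chosen with earlier results of these data known. Named were the members, the 5 genes most and 3 least like each, the listed neighbours within 500 kb, marker genes, and per list up to 4 called genes with the smallest adjusted p in FMD vs FED and up to 2 abundant ones not called. A gene that this rule also names is not reported here. The lists, written from general knowledge, cover methionine and transsulfuration, methanethiol and sulfide, peroxide and formaldehyde, selenoproteins, selenocysteine synthesis, sex-biased genes and cell type markers. As alternatives, other pseudocounts, no filter, scaling, quantile normalization, no trend, 1 fit per pair of groups, a replicate block and the omission of each library were tried. The omission of libraries for genes of the lists was added after seeing the data. Protein sequences were not used here.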

Additional observations from a re-analysis of the deposited data

How the results depend on the processing

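Selenbp2 stayed below FED in both diets under all alternatives. The log2 fold change of Selenbp2 in FMD vs FED was -6.59 after scaling, and leaving out single libraries gave -5.41 to -5.15 in IF and -6.44 to -5.77 in FMD mice. For Selenbp1, quantile normalization gave 0.14 in IF and -0.20 in FMD mice and scaling gave -0.22 in FMD mice, and with single libraries left out the ranges were 0.38 to 0.55 in IF and 0.09 to 0.50 in FMD mice. In FMD vs IF, Selenbp1 ranged from -0.38 to 0.04, with 0.0364 without FMD replicate 1, and Selenbp2 from -1.19 to -0.53, with -1.19 without FMD replicate 2. The cause was not tested. The difference of log2(TPM + 1) between Selenbp2 and Selenbp1 ranged over the libraries left out from -5.87 to -5.55 in IF vs FED, -6.54 to -6.17 in FMD vs FED and -0.81 to -0.46 in FMD vs IF. The ratio of the sums ranged from 0.168 to 0.195, 0.133 to 0.183 and 0.726 to 1.001.

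Counts of called genes depended more on the processing. In IF vs FED the 553 genes became 316 with a pseudocount of 5, 333 after scaling (172 higher, 161 lower) and 326 after quantile normalization, and 415 to 608 with a library left out. In FMD vs FED the 1732 genes became 938, 519 (256 higher, 263 lower) and 514, and 1166 to 2173. In FMD vs IF the 240 genes became 113, 104 (52 higher, 52 lower) and 98, and 24 with 1 fit per pair of groups. Leaving out a library gave 18 to 820 genes there, with 18 without IF replicate 2, 20 without IF replicate 3, 25 without IF replicate 1, 820 without FMD replicate 4, 159 without FMD replicate 1, and 117, 126 and 96 without FED replicates 1, 2 and 3.

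Whether replicate numbers pair the libraries is not stated and was not tested. Residuals of same-numbered libraries correlated at 0.00348 to 0.177, all above 0, and those of differently numbered libraries at -0.202 to 0.211. Not every library correlated best with its own number. A replicate block raised the genes called from 240 to 772 in FMD vs IF and from 1732 to 2153 in FMD vs FED. With it, Selenbp2 differed between FMD and IF by -0.64 (limma, adjusted p = 0.0782) and Selenbp1 by -0.11, and neither was called. Single-library depth could not be assessed from TPM.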

Other observations

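Scaling changed which sulfur and selenium genes were called. The genes named here were chosen after their values were seen. After scaling, 4 of the 9 tested genes of methanethiol and sulfide handling were called lower in FMD vs FED and none higher, namely Ethe1 at a log2 fold change of -1.29, the mercaptopyruvate sulfurtransferase Mpst at -0.80, the methyltransferase Mettl7a1 at -0.80 and the methionine salvage enzyme Apip at -0.59. Ethe1 (-0.74) and Mpst (-0.72) were also called lower in FMD vs IF on scaled values. Without scaling, Mpst differed by -0.25 in FMD vs FED and Apip by -0.06, and neither was called. Over all genes tested, 5.64% were called lower in FMD vs FED after scaling and 1.11% in FMD vs IF.

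Among the 13 selenoproteins tested, 3 were called lower in FMD vs FED after scaling, the methionine sulfoxide reductase Msrb1 at -0.87, Selenow at -0.69 and Selenok at -0.59, and none higher. Selenok was also called lower in IF vs FED on scaled values, at -0.68. Over all genes tested, 5.64% were called lower in FMD vs FED and 3.45% in IF vs FED after scaling. The called genes without scaling were other ones, Selenop, Gpx4 and Txnrd1, all higher. In the methionine list, the transsulfuration enzyme Cth and the taurine pathway enzyme Csad rose by 1.31 each in IF vs FED without scaling, and both were at 1.03 and not called after it. Each of them also lost its call when any of 5 single libraries was left out.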
